A study of Capra hircus with 20 samples.

Results

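The cytosolic ribosomal protein genes are the genes whose products, together with ribosomal RNA, build the large (60S) and small (40S) subunits of the ribosome. Members were taken from the mRNA table by their symbols: RPL or RPS followed by a number, with an optional A, X or L, together with RPLP0, RPLP1, RPLP2 and RPSA. The rule found 79 of the 20587 symbols in the table, 47 of the large and 32 of the small subunit, and their FPKM was summed over 106 transcripts. Of these, 73 were core ribosomal proteins and 6 were paralogs (RPL3L, RPL7L1, RPL10L, RPL22L1, RPL26L1 and RPS27L), that is, copies or relatives of a core protein. A mean of at least 1 FPKM was reached by 77 of the 79, all but RPL3L and RPL10L, and these 77 were tested along with all 11432 symbols that passed the same filter.

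Every ribosome carries 1 copy of nearly all of these proteins, so their mRNAs are held at similar, high levels in growing cells. Their mRNAs start with a tract of pyrimidines through which the mTOR pathway sets how strongly they are translated. In fat tissue, precursor cells divide before they mature, and new ribosomes are made mainly while cells grow and divide.

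The cells came from 5 male Jianzhou Daer goats 7 days old and were grown in culture to passage 3. Intramuscular preadipocytes (IMPA) were isolated from the longissimus dorsi muscle and subcutaneous preadipocytes (SPA) from subcutaneous fat, and both were collected at day 0. Intramuscular adipocytes (IMA) and subcutaneous adipocytes (SA) were the same kinds of cells after 3 days in medium with 50 μM oleic acid. Each of the 4 groups had 5 libraries of total RNA, which the methods of the study call biological replicates. The labels do not tie a library to a goat. The p-values therefore measure the spread between these libraries, and how much of it lies between goats is not known.

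Markers of the labelled cell types were examined first. Of 12 adipocyte markers, ADIPOQ, PLIN1, PLIN4 and LEP had means under 1 FPKM in every group and PPARG in all but SA, and the summed level of the 12 lay between 19.8 and 28.3 FPKM over the 20 libraries, no higher in IMA and SA than in IMPA and SPA. The 13 skeletal muscle markers summed to 3445 to 3945 FPKM in IMPA and 12247 to 12949 FPKM in IMA, against 7.44 to 24.4 in SPA and 7.75 to 9.91 in SA, so the intramuscular libraries held much muscle RNA. The 9 stromal markers summed to 6108 to 8610 FPKM in the intramuscular and 12136 to 13430 FPKM in the subcutaneous libraries, with DLK1 under 1 FPKM in every group. The 6 macrophage markers summed to 18.2 FPKM at most, with CSF1R, PTPRC, AIF1 and MRC1 under 1 in every group, and the 6 endothelial markers to 1.19 FPKM at most. FPKM is a number of fragments divided by transcript length and by the mapped fragments of the library, and how many fragments lie behind a value is not known. The share of reads mapped to the genome, as the study lists it, did not overlap between the groups in any of the 4 comparisons below, so it cannot be told apart from the group.

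The members were among the most abundant mRNAs in all 4 groups. Of the 100 symbols with the highest mean FPKM, 62 were ribosomal protein genes. The core members ranged in mean level from 292 FPKM for RPL28 to 2197 FPKM for RPS18, a 7.52-fold range with a median of 1182 FPKM, whereas the median over all symbols tested was 9.58 FPKM. Among the highest were RPS18 of the small subunit, RPL23 of the large subunit, and RPLP1 and RPLP0 of the P stalk, the arm of the large subunit that recruits elongation factors, with means of 2197, 2073, 2058 and 2057 FPKM. The lowest that were tested were RPL28 at 292 FPKM and the paralogs RPS27L at 237, RPL22L1 at 234, RPL26L1 at 36.3 and RPL7L1 at 28.1 FPKM. Replicates were close: the median coefficient of variation of the core members within a group was 3.05% in IMPA, 3.54% in IMA, 3.71% in SPA and 6.51% in SA.

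**Figure D1:**
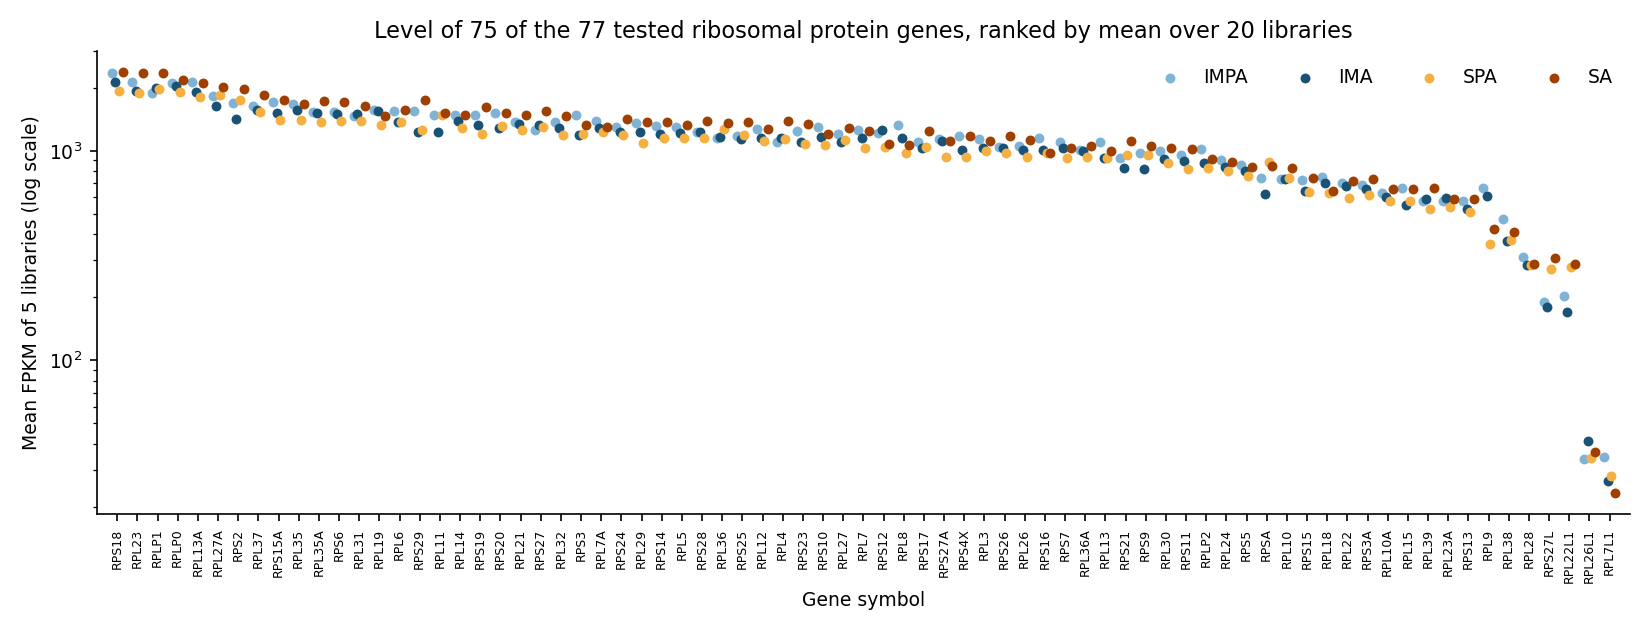
Mean FPKM (5 libraries per group, log scale) of 75 of the 77 tested ribosomal protein genes, ranked from left to right by their mean over 20 libraries, with 1 point per group. Most genes lie close to the median of 1182 FPKM in all groups, and a short tail at the right holds RPL9, RPL38, RPL28 and the 4 tested paralogs.

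The 79 genes together held between 20.6% and 24.58% of the summed mRNA FPKM of a library. In IMPA the share was 23.47%, 23.54%, 23.46%, 22.92% and 23.17% in replicates 1 to 5, with a mean of 23.31% ± 0.264 (SD, n = 5). In IMA it was 21.80%, 20.98%, 20.89%, 20.87% and 20.94%, with a mean of 21.10% ± 0.395. Each IMA library was thus below each IMPA library, and IMA replicate 1 was the highest of its group. In SPA the share was 21.60%, 21.20%, 21.22%, 20.60% and 21.06%, with a mean of 21.14% ± 0.36. In SA it was 22.69%, 23.92%, 24.58%, 23.32% and 22.81%, with a mean of 23.46% ± 0.789. Each SA library was above each SPA library, the opposite of the intramuscular cells. Before induction IMPA was above SPA by 2.17 percentage points, after it IMA was below SA by 2.37 points, and the groups did not overlap in either case. In bulk libraries a change in such a share can come from fewer cells of one kind or from less of the RNA per cell, which cannot be told apart.

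The share depends on what else is in the libraries. In IMA, where the share was lower than in IMPA, 12 of the 13 muscle markers were called higher and 1 lower against IMPA. Of all symbols, 19.9% were called higher and 40.2% lower in that comparison. With the 13 muscle markers left out of the denominator, a choice made after seeing the data, the share was 23.54% ± 0.258 in IMPA and 21.79% ± 0.395 in IMA. The groups did not overlap (lowest IMPA library 23.14%, highest IMA library 22.49%). Only these 13 genes were left out, not all RNA of muscle cells, so the part of muscle RNA in the lower share was not tested. With the lncRNA tables added to the denominator, the means were 15.83% in IMPA, 15.42% in IMA, 14.51% in SPA and 16.31% in SA, and IMPA then overlapped IMA and IMA overlapped SA. A single newly assembled lncRNA, LNC_010228, held 19.95 to 26.88% of that larger sum in IMA and 26.54 to 28.03% in IMPA. It held 25.88 to 29.07% in SPA and 23.58 to 27.52% in SA.

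**Figure D2:**
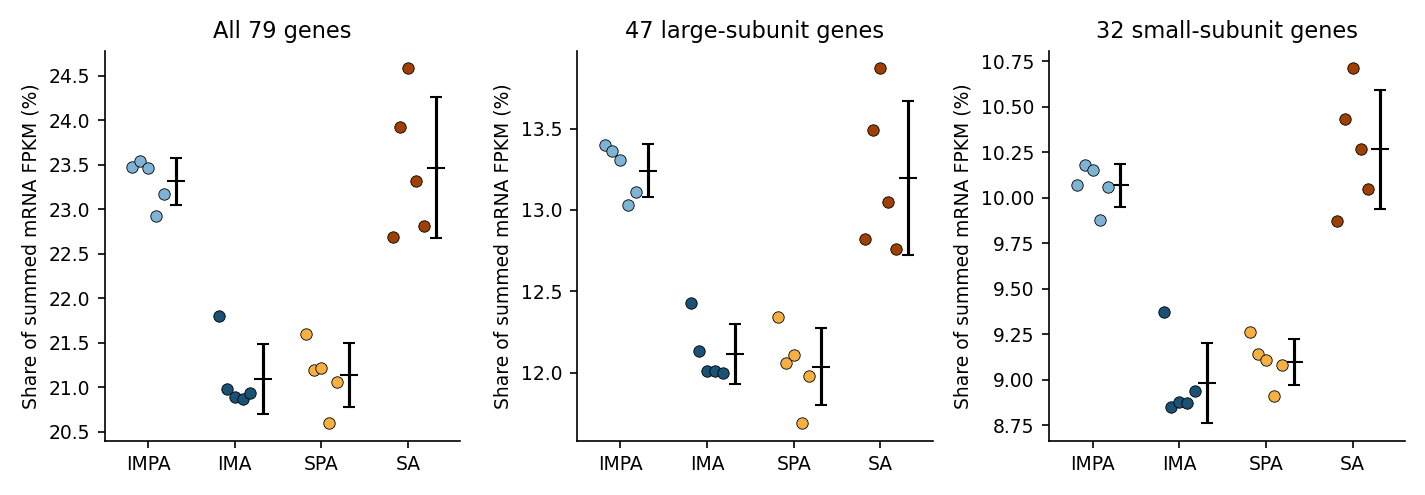
Share (%) of the summed mRNA FPKM held by all 79 ribosomal protein genes, by the 47 of the large subunit and by the 32 of the small subunit, with 1 point per library and the mean ± SD (n = 5) beside each group. The share is lower in IMA than in IMPA and higher in SA than in SPA for both subunits, and the axes do not start at 0.

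Both subunits moved together. The large subunit genes held 13.24% ± 0.162 of mRNA FPKM in IMPA, 12.12% ± 0.184 in IMA, 12.03% ± 0.238 in SPA and 13.20% ± 0.471 in SA. The small subunit genes held 10.07% ± 0.116, 8.98% ± 0.219, 9.10% ± 0.123 and 10.27% ± 0.327 in the same order. The ratio of the large to the small share stayed between 1.27 and 1.37 over the 20 libraries, lowest in SA (1.27 to 1.3) and highest in IMA (1.33 to 1.37).

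The first comparison asked how the members changed during induction of the intramuscular cells. Called here means a Benjamini-Hochberg adjusted p under 0.05 in limma over all 11432 symbols. In IMA against IMPA, 45 of the 77 tested members were called lower and 2 higher, whereas 40.2% of all symbols were called lower and 19.9% higher. The median log2 fold change of the members was -0.11 (0.925-fold) beside -0.09 over all symbols, so the members as a group moved little further than the average symbol. The count of 45 lower became 31 under upper-quartile scaling and 63 with the FPKM sum over the other mRNAs made equal. No overlap between the groups was found for 29 members (37.7%) that were lower, beside 29.2% of all symbols, and for 1 (1.3%) that was higher, beside 14.3%. Both subunits took part, with 24 large and 21 small subunit genes called lower. When the mapped share of the libraries was added as a covariate, no member was called in this comparison, with 7 members at an unadjusted p under 0.05, while the median stayed at -0.12.

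RPS3, which lines the entry of the mRNA channel on the small subunit, had the smallest p among the members that fell. It was at 1527, 1452, 1524, 1425 and 1461 FPKM in IMPA and at 1276, 1150, 1167, 1168 and 1211 FPKM in IMA. The groups did not overlap, and the change was -0.31 ± 0.038 (SE) on the log2 scale (adjusted p = 3.3e-05). RPL15, a core protein of the large subunit, was at 671, 654, 666, 655 and 674 FPKM in IMPA and 597, 528, 537, 539 and 562 FPKM in IMA. Again every IMA library was lower, and the change was -0.27 ± 0.037 (adjusted p = 7.8e-05). RPS9, RPS4X, whose gene lies on the X chromosome, and RPLP2, a protein of the P stalk, followed with changes of -0.25, -0.22 and -0.22, none of them with overlap. RPL38, known for its part in the translation of Hox mRNAs, had the lowest estimate of the core members with all libraries, from 472 ± 23.9 to 371 ± 28.7 FPKM (-0.35 ± 0.054, adjusted p = 0.00017). RPS29 was next to it at -0.34 ± 0.089, and at -0.44 ± 0.034 without IMA replicate 1, so the order of the pair rests on that library.

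RPL26L1 and RPLP1 were the exceptions that rose. The first, a paralog of RPL26, was at 31.8, 33.9, 34.6, 34.5 and 33.1 FPKM in IMPA and at 41.7, 40.9, 41.2, 38.8 and 43.5 FPKM in IMA. Its libraries did not overlap and it rose by 0.29 ± 0.039 (adjusted p = 6e-05). RPLP1 was at 1940, 1908, 1865, 1845 and 1863 FPKM in IMPA and at 2024, 2041, 2012, 2033 and 1920 FPKM in IMA. Only IMA replicate 5 lay inside the IMPA range. The change of 0.09 ± 0.032 (adjusted p = 0.029) lost the call in 5 of the fits that left out 1 library (IMA replicate 2 or 4, or IMPA replicate 3, 4 or 5), with changes of 0.08 to 0.09, and turned to -0.02 under quantile normalization. RPL7L1, a relative of RPL7 with a role in assembly of the large subunit, had the lowest estimate of all, -0.37 ± 0.15, but spread from 26.3 to 40.8 FPKM in IMPA and from 20.7 to 33.3 in IMA, and missed the threshold (adjusted p = 0.054).

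In the subcutaneous cells the members moved the other way. In SA against SPA, 64 of the 77 members (83.1%) were called higher and 0 lower, whereas 26.1% of all symbols were called higher and 26.0% lower. At an unadjusted p under 0.05 the number was likewise 64. The median change was 0.21 on the log2 scale (1.15-fold), against -0.01 over all symbols. The groups did not overlap for 53 members, all higher in SA, beside 19.8% of all symbols that were higher without overlap and 19.0% that were lower without overlap. By subunit, 35 large and 29 small subunit genes were called higher. Under quantile normalization 36 members were called higher and 5 lower, with a median of 0.07, so the number depends on the scaling. With the mapped share as a covariate 50 were called higher and 1 lower, with a median of 0.34. SPA replicate 1 and SA replicate 5, which differ from the other subcutaneous libraries in the part of the raw reads that the authors' filter removed, were also left out together, and 63 members were then called higher and 0 lower.

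RPS19, the gene most often mutated in Diamond-Blackfan anaemia, had the smallest p. It was at 1276, 1202, 1199, 1135 and 1236 FPKM in SPA and at 1557, 1724, 1777, 1586 and 1473 FPKM in SA. Each SA library exceeded each SPA library, and the change was 0.42 ± 0.057 (adjusted p = 5.7e-05). This rise rested on 1 of its 2 transcripts, as described below. RPS18, the most abundant member, was at 2009, 1916, 1952, 1863 and 1884 FPKM in SPA and at 2308, 2421, 2524, 2375 and 2302 FPKM in SA. There was no overlap, and it rose by 0.31 ± 0.044 (adjusted p = 8.8e-05). RPS15A, of the small subunit, and RPL4, which lines the exit tunnel of the large subunit, rose by 0.32 and 0.29. RPS29, a zinc-binding protein of the small subunit head, showed the largest rise, from 1179 to 1331 FPKM in SPA to 1484 to 1966 FPKM in SA (0.47 ± 0.071, adjusted p = 0.00014), without overlap, although SA replicate 1 at 1484 FPKM was well below SA replicate 4 at 1966 FPKM.

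Few members stood aside. RPSA, the protein at the mRNA exit side that is also known as the laminin receptor, was at 885 ± 36.5 FPKM in SPA and 850 ± 52.5 in SA (-0.06 ± 0.049, adjusted p = 0.34). The estimate for RPL7L1 was -0.24 ± 0.11 (adjusted p = 0.097), with SPA replicate 5 at 39.4 FPKM and the other SPA libraries at 23.9 to 26.9. RPS16 stood at 982 ± 33.8 and 973 ± 81.2 FPKM (adjusted p = 0.83).

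The difference between the cell types in the stage change was then tested as an interaction over the 20 libraries, (IMA - IMPA) - (SA - SPA). For 68 members (88.3%) the change was more positive in the subcutaneous cells and for 1 in the intramuscular cells, whereas the shares over all symbols were 34.6% and 20.7%. The median interaction of the members was -0.32 beside -0.08 over all symbols. With the mapped share as a covariate 16 members were past the threshold in the first direction and 0 in the second, with a median of -0.29. A decrease in IMA together with an increase in SA and an interaction, each past its threshold, was found for 38 members (9.65% of all symbols), 22 were called higher in SA with an interaction but had no call in IMA (7.79% of all symbols), and 7 were called lower in IMA with an interaction but had no call in SA (RPL7A, RPL11, RPL18, RPL22L1, RPL38, RPS16 and RPSA, beside 12.5% of all symbols). The calls for the fall and the interaction of RPSA were lost in the fit of its most abundant transcript. IMPA replicate 1 was far below the other IMPA libraries for that transcript, as given below. Only RPL19, RPL28, RPL36, RPL7L1 and RPS12 had no call in any of these 3 tests.

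RPS4X showed the clearest interaction together with RPS15A. It was at 1195, 1176, 1190, 1133 and 1179 FPKM in IMPA and 1063, 984, 1013, 979 and 991 FPKM in IMA. In SPA it was at 972, 949, 939, 902 and 932 FPKM, and in SA at 1109, 1230, 1297, 1152 and 1085 FPKM. The libraries of each cell type were thus separated by stage, downwards in the intramuscular and upwards in the subcutaneous cells, with an interaction of -0.54 ± 0.06 (adjusted p = 1.4e-07). RPS15A, RPS18, RPS23, a protein of the decoding centre, and RPS19 had interactions of -0.48, -0.45, -0.48 and -0.59. The most negative value belonged to RPS29, -0.82 ± 0.12 (adjusted p = 6.3e-06). IMA replicate 1 held 1621 FPKM of RPS29 and the other IMA libraries 1125 to 1158, and without that library the interaction was -0.92 ± 0.083 (adjusted p = 1.3e-08). RPL26L1 was the one member with a positive interaction (0.19 ± 0.066, adjusted p = 0.023), and it was not called when the libraries were scaled to the same FPKM sum over the other mRNAs (0.14).

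**Figure D3:**
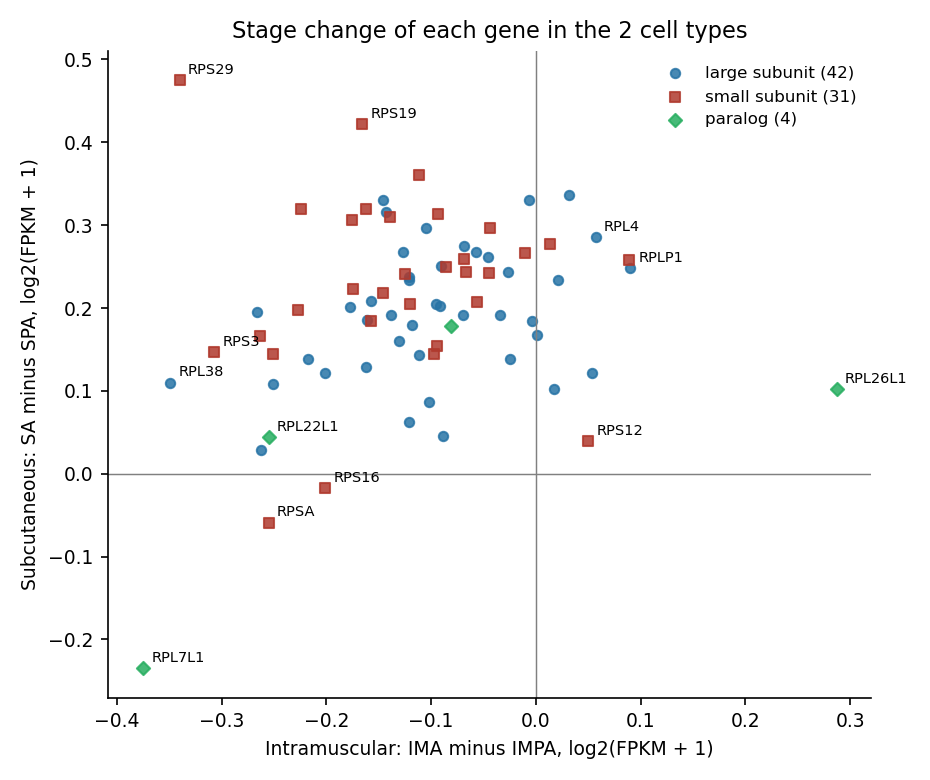
Stage change of each of the 77 tested genes on the log2(FPKM + 1) scale, with IMA minus IMPA on the horizontal axis, SA minus SPA on the vertical axis, and symbols for 42 large subunit, 31 small subunit and 4 paralog genes. Most genes lie in the upper left, lower in IMA and higher in SA, with RPL26L1 at the right (0.29) and RPL7L1 at the lower left.

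The cell types were then compared at each stage. Before induction, in IMPA against SPA, 55 members (71.4%) were called higher in the intramuscular cells and 4 lower, whereas 42.3% of all symbols were called higher and 32.9% lower. The members' median difference was 0.18 (1.13-fold) beside 0.06 over all symbols, and 46 members were higher without overlap (35.9% of all symbols) and 3 lower without overlap (27.5%). After induction, in IMA against SA, 5 members were called higher in the intramuscular cells and 48 (62.3%) lower, beside 29.0% and 43.4% of all symbols. The median difference was then -0.16 (0.897-fold) beside -0.09, and -0.09 beside -0.11 under quantile normalization, with 4 members higher (24.0% of all symbols) and 35 lower without overlap (34.7%). The same gene was called higher in IMPA than in SPA and lower in IMA than in SA for 31 members (8.48% of all symbols), and 20 others were called higher in IMPA and had no call after induction (10.4% of all symbols). SA had the highest mean of the 4 groups for 48 of the 77 members and SPA the lowest for 52, and the commonest order, SA, IMPA, IMA, SPA from high to low, was found for 28 members. With the mapped share as a covariate, 2 members were called higher and 1 lower in IMPA against SPA, and 1 higher and 17 lower in IMA against SA.

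A few members kept the same side at both stages. RPL9, a large subunit protein near the base of the P stalk, was at 694, 661, 669, 652 and 651 FPKM in IMPA and at 387, 345, 352, 347 and 361 FPKM in SPA. The intramuscular libraries were all far above the subcutaneous ones, with a difference of 0.89 ± 0.037 (adjusted p = 2.5e-10). After induction RPL9 was at 629, 617, 638, 571 and 605 FPKM in IMA and 412, 421, 455, 409 and 416 FPKM in SA, again without overlap (0.53 ± 0.044, adjusted p = 7.5e-08). Its fall in IMA (-0.12) and its rise in SA (0.24) had the directions found for most members. RPS12, RPL18 and RPL8, the last next to the peptidyl transferase centre, were also called higher in the intramuscular cells at both stages, by 0.22, 0.25 and 0.44 before and by 0.23, 0.12 and 0.12 after induction. The call for RPL8 after induction was lost without IMA replicate 1 (0.09), and it was not kept under all 3 alternative scalings of the libraries. RPS4X and RPS10, a protein of the small subunit head, were higher in IMPA by 0.32 and 0.29, without overlap, and did not keep that side: RPS4X was called lower in IMA than in SA (-0.22) and RPS10 had no call (-0.05).

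On the subcutaneous side were RPS27L, RPL22L1, RPSA and RPL36. RPS27L, a paralog of RPS27 that p53 is known to induce, was at 200, 183, 199, 188 and 179 FPKM in IMPA and at 281, 284, 278, 250 and 268 FPKM in SPA. All subcutaneous libraries were higher, with a difference of -0.52 ± 0.045 (adjusted p = 3.4e-07). In IMA it was at 165, 180, 198, 185 and 169 FPKM and in SA at 297, 312, 327, 307 and 297 FPKM, the largest gap of any member at this stage (-0.78 ± 0.052, adjusted p = 6.5e-09). RPL22L1, the paralog of the RNA-binding protein RPL22, went the same way, at 202 ± 10.4 FPKM in IMPA, 170 ± 16.8 in IMA, 278 ± 23.5 in SPA and 287 ± 28.3 in SA, with differences of -0.45 and -0.75 and no overlap at either stage. RPL22 itself had the commonest order of group means, SA, IMPA, IMA and SPA from high to low. It was called higher in IMPA than in SPA and had no call in IMA against SA (-0.08). RPSA was at 743 ± 34.7 FPKM in IMPA and 885 ± 36.5 in SPA (-0.25 ± 0.042, adjusted p = 0.00013), and at 624 ± 44.2 in IMA and 850 ± 52.5 in SA (-0.45 ± 0.057, adjusted p = 6.7e-06). RPS2, which lies at the mRNA entry, and RPS21 had no call before induction (-0.05 for both) and differed by -0.47 and -0.42 on the log2 scale in IMA against SA. RPS9 likewise had no call before induction (0.03) and a difference of -0.36 after it. The reads of ribosomal protein genes can also be assigned to processed pseudogenes and paralogs, and how the authors' counting divided them is not given in the sources used here.

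**Figure D4:**
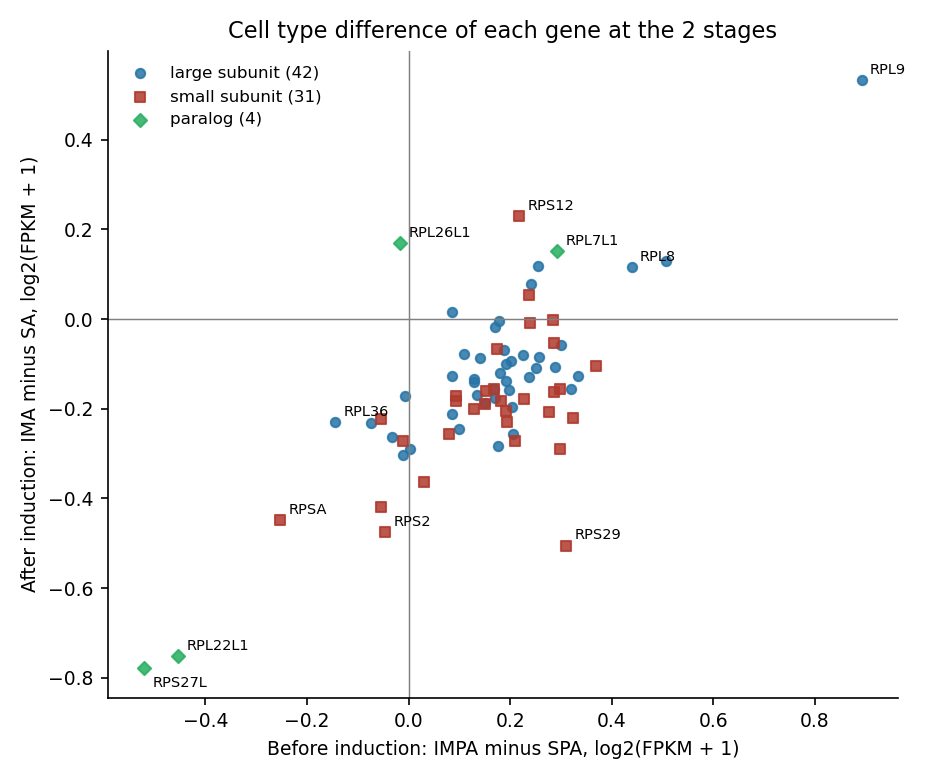
Difference between the cell types for each of the 77 tested genes on the log2(FPKM + 1) scale, IMPA minus SPA on the horizontal axis and IMA minus SA on the vertical axis. The bulk lies at the lower right, higher in IMPA and lower in IMA, while RPL9 lies at the upper right (0.89 and 0.53) and RPS27L and RPL22L1 at the lower left.

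The 6 paralogs did not move as 1 group. RPL3L, the form of RPL3 known from striated muscle, stayed under the filter, at 0.372 ± 0.0989 FPKM in IMPA, 0.697 ± 0.264 in IMA, 0.226 ± 0.0984 in SPA and 0.171 ± 0.0793 in SA. Its highest library was IMA replicate 5 at 1.01 FPKM. RPL10L, known from the testis, was listed at 0 in most libraries and reached 0.164 FPKM in 1 IMA library. Of the 4 tested, RPS27L and RPL22L1 were higher in the subcutaneous cells, RPL26L1 was higher in IMA than in IMPA and SA, and RPL7L1 had no call in any comparison. When each member was expressed relative to the median member of its library, 56 of the 77 had group means within 0.25 of each other on the log2 scale, and 5 spanned 0.5 or more: RPL22L1 (0.81), RPL9 (0.71), RPS27L (0.71), RPSA (0.61) and RPL7L1 (0.56).

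**Figure D5:**
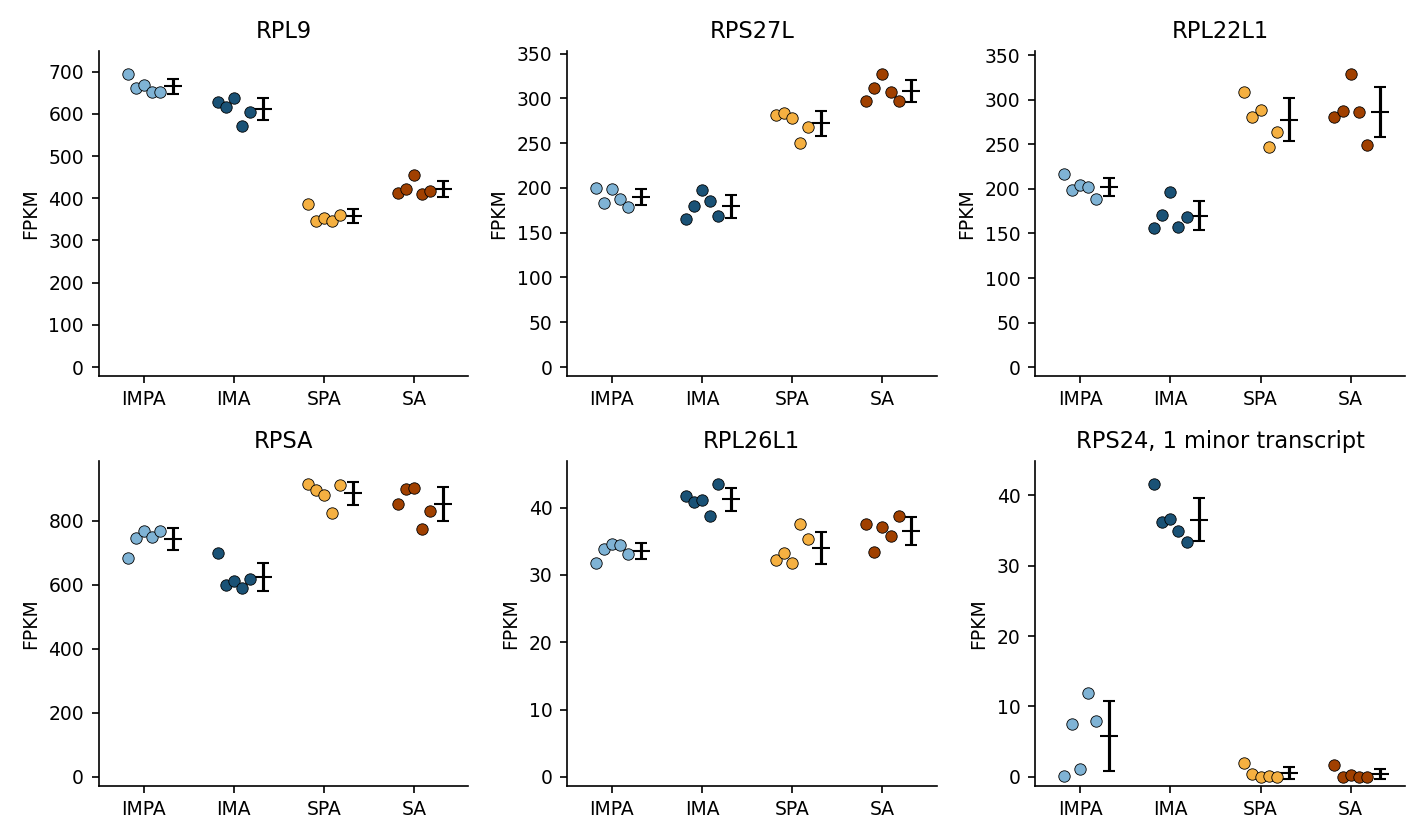
FPKM in each of the 20 libraries (points) with the mean ± SD of each group (n = 5) for RPL9, RPS27L, RPL22L1, RPSA, RPL26L1 and 1 minor RPS24 transcript. RPL9 is higher and RPS27L and RPL22L1 are lower in both intramuscular groups, RPL26L1 is highest in IMA, and the RPS24 transcript is at 33.4 to 41.6 FPKM in IMA and near 0 in SPA and SA.

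Of the 79 members, 18 had more than 1 transcript in the table, and their transcripts were also tested singly among the 16706 transcripts that passed the filter, a fit added after the data had been seen. RPS24, a small subunit gene whose last exons are known to be spliced differently between tissues, showed the clearest difference. Its transcript XM_005699251.3 was at 0.151, 7.58, 1.11, 11.9 and 7.95 FPKM in IMPA and at 41.6, 36.2, 36.6, 34.9 and 33.4 FPKM in IMA. In SPA it reached 2.02 FPKM at most and in SA 1.67 FPKM, so every IMA library was above all others. It was called higher in IMA than in IMPA (2.98 ± 0.62, adjusted p = 0.0045, beside 12.0% of all transcripts called higher) and than in SA (4.87 ± 0.26, adjusted p = 9.3e-08), with an interaction of 3.06 (adjusted p = 0.0041, beside 11.5% of all transcripts). Even in IMA it held only 2.85 to 3.3% of the RPS24 FPKM, and the main transcript XM_005699253.3 held 92.7 to 93.1%, against 96.8 to 97.7% in SA. The transcript was higher in the libraries with the most muscle RNA, and the part of muscle cells in it was not tested.

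RPL6 was split between a pair of transcripts whose balance moved with the stage. XM_013970794.2 held 68.2 to 73.6% of the RPL6 FPKM in IMPA and 47.5 to 62.8% in IMA, and 59.1 to 67.4% in SPA and 53.6 to 58.2% in SA, without overlap between the stages in either cell type. In IMA this transcript was called lower (-0.55 ± 0.089, adjusted p = 0.0011, beside 21.4% of all transcripts called lower) and its partner XM_005709406.3 higher (0.45 ± 0.083, adjusted p = 0.0022), so the fall of RPL6 as a whole (-0.16) hides opposite changes. RPL36 had a minor transcript, XM_018050913.1, at 28.3 to 111 FPKM in IMPA and 79.4 to 104 FPKM in IMA against 24 to 37.3 FPKM in the subcutaneous libraries. This transcript was called higher in the intramuscular cells at both stages (1.3 and 1.6), whereas RPL36 as a whole was called lower (-0.14 and -0.23).

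For RPS19 and RPSA the gene-level result depended on how the transcripts were treated. In RPS19, XM_005692574.3 held 87.9 to 96.9% of RPS19 in SPA and 58.1 to 81.4% in SA, and its own level had no call (-0.10 ± 0.12, adjusted p = 0.61). The second transcript, XM_018062504.1, was at 65.5, 45.5, 36.9, 93.1 and 150 FPKM in SPA and at 653, 697, 331, 632 and 450 FPKM in SA. It rose by 2.93 ± 0.38 (adjusted p = 0.00033, beside 13.9% of all transcripts called higher), and its interaction was -3.56 (adjusted p = 0.0014, beside 18.9% of all transcripts). The same transcript ranged from 89.4 to 626 FPKM among the IMPA libraries alone. In RPSA, the most abundant transcript NM_001285749.1 was at 47, 495, 522, 513 and 528 FPKM in IMPA and at 482, 382, 394, 374 and 384 FPKM in IMA. IMPA replicate 1 was far below all other libraries of both groups, and the other IMPA libraries were all above the IMA libraries. IMPA replicate 1 held 637 FPKM of the second transcript, XM_013973310.2. That transcript was at 237 to 637 FPKM in IMPA and 216 to 234 FPKM in IMA, without overlap but without a call (-0.42, adjusted p = 0.24). With NM_001285749.1 alone the estimate for IMA against IMPA was 0.33 (adjusted p = 0.69) and the interaction 0.36 (adjusted p = 0.7). Both calls of RPSA as a whole (-0.25 and -0.20) were thus lost and their signs turned. Whether this holds without IMPA replicate 1 was not tested. For RPL28, RPL35A, RPS9, RPS19 and RPSA the share of the main transcript swung by more than 30 percentage points over the 20 libraries, and the split of these genes over transcripts was uneven between replicates.

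Structural groups of the ribosome were followed as further lists. Of the 4 genes of the P stalk and its base (RPLP0, RPLP1, RPLP2 and RPL12), 4 were called higher in SA, and 2 lower and 1 higher in IMA. All 4 had an interaction, more positive in the subcutaneous cells. The medians were 0.19 in SA, -0.09 in IMA and -0.28 for the interaction. RPL5 and RPL11, which with 5S rRNA form the particle that can bind MDM2, were both called lower in IMA, RPL11 by -0.26 ± 0.041 (adjusted p = 0.00019), and of the pair RPL11 had no call in SA (0.03). Of 13 proteins of the head of the small subunit, 9 were called lower in IMA and 11 higher in SA (medians -0.16 and 0.22). Of 18 genes mutated in Diamond-Blackfan anaemia, 10 were called lower in IMA and 16 higher in SA (medians -0.09 and 0.25). The shares over all symbols tested were 40.2% lower and 19.9% higher in IMA, 26.1% higher in SA, and 34.6% with an interaction of that direction. Over all members the counts were 45, 2, 64 and 68 of 77 in the same order. Nothing here was tested to set these groups apart from the other members.

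Subunit proteins whose symbols the rule does not match were examined as well. Of the 4 tested, 1 was called higher and 1 lower in IMA, and 2 higher and 0 lower in SA (medians 0.05 and 0.06). The shares over all symbols were 19.9%, 40.2%, 26.1% and 26.0% in the same order. RACK1, the scaffold protein on the small subunit head, moved in the directions of most members and was at 1681 ± 29.8 FPKM in IMPA, 1480 ± 80.4 in IMA, 1498 ± 43.3 in SPA and 1790 ± 108 in SA, with changes of -0.18 in IMA (adjusted p = 0.0019) and 0.26 in SA. FAU, a small subunit protein made as a ubiquitin-like fusion, was at 556 ± 18.6 FPKM in IMPA and 571 ± 38.4 in IMA (0.04, adjusted p = 0.54). RPL36AL stood at 300.0 ± 3.69 in IMPA and 316 ± 10.9 FPKM in IMA (0.07, adjusted p = 0.063).

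The factors that make ribosomes fell with the members in the intramuscular cells and were split in the subcutaneous ones. Over all symbols tested, 40.2% were called lower and 19.9% higher in IMA, and 26.1% higher and 26.0% lower in SA. Of 51 ribosome biogenesis genes tested, 44 were called lower and 2 higher in IMA, with a median of -0.33, which is further from 0 than the members' median. NOP56, a core protein of box C/D particles, went from 63.2 ± 4.17 to 37.8 ± 2.37 FPKM (-0.73), and LTV1, an export factor of the small subunit, from 15.0 ± 0.977 to 8.20 ± 0.658 FPKM (-0.80). In SA 11 were called higher and 11 lower, with a median of -0.02. Among those that rose, fibrillarin (FBL), the methyltransferase of rRNA, went from 58.6 ± 3.47 to 81.3 ± 1.88 FPKM and nucleophosmin (NPM1) from 398 ± 6.89 to 494 ± 26.4 FPKM. Of 10 genes of RNA polymerase I, which transcribes rRNA, 6 were called lower and 1 higher in IMA, and 3 lower and 1 higher in SA (medians -0.23 and -0.09).

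Genes of translation outside the ribosome gave mixed counts, some near the shares over all symbols. Those shares were 40.2% lower and 19.9% higher in IMA, and 26.1% higher and 26.0% lower in SA. Of 8 elongation factors, 4 were called lower and 1 higher in IMA, and 4 higher and 1 lower in SA. EEF1B2, an exchange factor for EEF1A, followed the members, with -0.19 in IMA and 0.33 in SA. The gene that rose in IMA was EEF1A2, the form of elongation factor 1A known from muscle and neurons, at 9.68 ± 0.967 FPKM in IMPA, 36.8 ± 4.12 in IMA, 0.342 ± 0.0912 in SPA and 0.264 ± 0.0681 in SA. Of 38 initiation factors, 18 were called lower and 4 higher in IMA, and 11 higher and 7 lower in SA (medians -0.10 and 0.01). Of 20 other mRNAs known to start with a pyrimidine tract, a list that shares genes with the factors above, 8 were called lower and 3 higher in IMA and 8 higher and 4 lower in SA (medians -0.09 and 0.04). Of 20 genes that control translation and growth, 9 were called lower and 5 higher in IMA, and 9 lower and 1 higher in SA, the 1 being RHEB, the activator of mTOR (0.36).

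The 77 mitochondrial ribosomal proteins, which serve the separate ribosome of the mitochondrion, had 30 lower and 7 higher calls in IMA and 14 higher and 6 lower calls in SA, with medians of -0.09 and 0.02. The rise of the cytosolic members in SA (median 0.21) thus had no counterpart of that size in the mitochondrial list. For this and the next lists, the shares over all symbols were 40.2% lower and 19.9% higher in IMA. In SA they were 26.1% higher and 26.0% lower. Of 13 p53 response genes, 9 were called higher and 0 lower in SA and 5 higher and 3 lower in IMA. MDM2, the ligase that the 5S particle binds, went from 10.3 ± 0.309 to 19.8 ± 0.9 FPKM in SA (0.88), and was at 16.2 ± 0.357 and 15.9 ± 1.25 FPKM in IMPA and IMA. Of 10 housekeeping genes, 7 were called lower and 1 higher in IMA and 5 lower and 2 higher in SA, among them ACTB, which fell by 0.52 and 0.58, so these genes were not level across the stages.

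Proliferation markers moved with the members. The 14 markers summed to 219 to 262 FPKM in IMPA, 178 to 216 in IMA, 110 to 125 in SPA and 440 to 490 in SA, which is also the commonest order of the members, SA, IMPA, IMA and SPA. All 14 were called higher in SA than in SPA (median 1.59) and 10 were called lower in IMA than in IMPA (median -0.38). Among all symbols, 26.1% were called higher in SA and 40.2% lower in IMA. RRM2, a subunit of ribonucleotide reductase, went from 10.7 ± 0.358 to 80.4 ± 5.06 FPKM in SA (2.80 ± 0.044, adjusted p = 3.1e-12), and stood at 33.7 ± 1.92 FPKM in IMPA and 21.8 ± 3.73 FPKM in IMA. The changes of these markers were several times larger than those of the members, and their part in the members' changes was not tested.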

How the data were processed

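Libraries of total RNA, with the second strand marked by dUTP per the labels, were sequenced by the authors. Per the labels and the methods of the study, reads were aligned to the goat genome ARS1 with HISAT2 2.0.4 and quantified with StringTie 1.3.1 and Ballgown, with Cuffdiff named beside them. GATK 2.6-5 is also named in the submitters' processing notes. The deposited values are FPKM per transcript and library, in 3 tables (mRNAs, annotated lncRNAs and newly assembled lncRNAs). They are not counts, so the depth behind a value is unknown and no interval for counting error was given.

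The FPKM of all transcripts of a symbol were summed and used as log2(FPKM + 1), without further scaling, so fold changes of low genes are understated. Only symbols whose mean reached 1 FPKM over the 20 libraries entered the tests, run in limma 3.58.1 under R 4.3.3 (linear model, moderated variances with a trend, two-sided). Each comparison was fitted on its 10 libraries and the interaction on all 20. P-values were adjusted by Benjamini-Hochberg over all 11432 symbols. Errors of means are SD (n = 5 libraries) and those of changes SE. The summed mRNA FPKM of a library ranged from 373889 to 413880. Tables were prepared with Python 3.11.15, pandas 2.3.3 and numpy 2.4.6, and figures with matplotlib 3.10.9. The fits were also tested on simulated data.

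The members and lists were chosen with earlier results of these data known. Members named are the 5 highest and 5 lowest by mean FPKM, up to 5 with the smallest p in each direction per comparison (adjusted p under 0.05, no overlap) and for the interaction, the paralogs, and the 2 farthest from the members' median in each direction. From each other list up to 4 genes with the smallest p were eligible. Other genes, such as RPL36, RPL6, RPS24, RPL11, RPS16, RPL22 and ACTB in SA, were chosen after their values were seen. All 79 members matched RefSeq gene identifiers. Some genes that this rule names are not reported here. The microRNA libraries, qPCR and sequences of the genes were not analysed here.

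Alternatives were a pseudocount of 0.1, a minimum mean of 0.1 FPKM, no filter, upper-quartile scaling, quantile normalization, scaling to the same FPKM sum over the other mRNAs, the replicate number as a block, all 4 groups in one fit, the mapped share as a covariate, the most abundant transcript of each symbol, and the omission of 1 library at a time, or of SPA replicate 1 with SA replicate 5.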

Additional observations from a re-analysis of the deposited data

Results flagged for a closer look

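Within a group of 5 libraries, 9 of the 116 sets of values examined held a library far from the other 4 by Dixon's criterion, which chance gives in about 1 in 20 sets. IMA replicate 1 accounted for 5 of them. Its ribosomal protein share was 21.8% (others 20.87 to 20.98%), and it held 2138 FPKM of RPLP0 (2013 to 2048), 891 of RPS21 (816 to 821), 1621 of RPS29 (1125 to 1158) and 700.0 of RPSA (591 to 618), all high. With the lncRNA tables added to the denominator, its share was instead the lowest of the group (14.98%, others 15.27 to 15.73%). RPSA was low in IMPA replicate 1 at 684 FPKM (747 to 769), and RPLP1 was low in IMA replicate 5 at 1920 FPKM (2012 to 2041). RPL7L1 was high in SPA replicate 5 at 39.4 FPKM (23.9 to 26.9), and RPL9 was high in SA replicate 3 at 455 FPKM (409 to 421).

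The stage change differed between intramuscular and subcutaneous cells by the interaction test of limma, with log2 differences of -0.48 for RPS15A, -0.54 for RPS4X, -0.45 for RPS18, -0.48 for RPS23, -0.59 for RPS19 and 0.19 for RPL26L1.

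Outside the mRNA table, a transcript of RPL37A typed as a lncRNA (XR_001919240.1) stood in the annotated lncRNA table with a mean of 1261 FPKM, rank 3 of 1093 transcripts there, beside a median of 0.788 FPKM. It was at 1246 ± 32.7 FPKM in IMPA, 1189 ± 30.6 in IMA, 1227 ± 50.6 in SPA and 1381 ± 91.1 in SA, which is a level usual for the ribosomal protein genes of the mRNA table, and it was not among the 79 members.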

How the results depend on the processing

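Calls refer to members of the 77 tested. With the mapped share as a covariate, IMA against IMPA had 0 higher and 0 lower, SA against SPA 1 lower, IMPA against SPA 2 higher and 1 lower, IMA against SA 1 higher and 17 lower, and the interaction 0 and 16. RPSA in SA turned to 0.09. Quantile normalization gave 36 higher and 5 lower in SA (median 0.067), 10 lower in IMPA against SPA, 9 higher in IMA against SA (median -0.089), 3 positive interactions (median -0.202), and RPLP1 in IMA at -0.02. Upper-quartile scaling gave 4 higher and 31 lower in IMA (median -0.073) and 8 lower in IMPA against SPA (median 0.134). Scaling to the other mRNAs gave 1 higher and 63 lower in IMA (median -0.188) and 0 positive interactions. One fit of all groups gave 1 higher in IMA, and the lower or no filter 2 positive interactions each. With the most abundant transcript RPS19 turned to -0.10 in SA, 0.11 in IMA against SA and 0.09 in the interaction, RPSA turned to 0.33 in IMA and 0.36 in the interaction, and RPS9 in IMA (-0.96) and RPSA in IMPA against SPA (-0.72) lost their calls. Leaving out 1 library in turn gave 38 to 47 lower and 1 to 3 higher in IMA, 56 to 64 higher in SA, 51 to 58 higher in IMPA against SPA, 41 to 52 lower in IMA against SA, and 66 to 70 negative interactions. The share with all 3 tables was 15.83%, 15.42%, 14.51% and 16.31% (IMPA, IMA, SPA, SA), and without muscle markers 21.79% in IMA. Except where named, causes were not tested. With the replicate number as a block, IMA against IMPA had 42 lower, SA against SPA 59 higher, IMPA against SPA 57 higher and IMA against SA 43 lower. In the check for a pairing, same-numbered libraries had correlations of -0.24 to 0.12 over the 4 comparisons. In IMA against IMPA they were 0.042 to 0.12, and 3 of 5 libraries correlated best with their own number. In the other comparisons 1, 2 and 0 of 5 did so, and the numbers were not taken as a pairing. The correlations given here are not those of whole expression profiles, which the study describes as high between the stages of each cell type.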
